A study of Mus musculus with 6 samples.

Results

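The 8 genes of the AP-1 group, Fos, Fosb, Fosl1, Fosl2, Jun, Junb, Jund and Atf3, were taken by their symbols from the 55376 genes of the deposited count and FPKM tables. AP-1 is a dimeric transcription factor made of Fos and Jun proteins, which pair through a leucine zipper and bind DNA with the neighbouring basic region (together, the bZIP domain). Jun proteins can pair with each other or with a Fos protein, whereas Fos proteins need a Jun partner, and Atf3 is a related bZIP protein that joins Jun proteins. Many of these genes are immediate early genes: their transcription starts within minutes of a stimulus, and their mRNAs are short-lived, in part through AU-rich elements in the 3′ UTR, to which decay factors bind. In muscle stem cells, or satellite cells (SCs), they are known to be switched on when tissue is dissociated and the cells leave quiescence.

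CPEB1 is an RNA-binding protein that recognizes the cytoplasmic polyadenylation element (CPE) in 3′ UTRs, and RNA immunoprecipitation sequencing (RIP-seq) reads the RNA that comes down with an antibody to it. The 6 libraries came from freshly isolated SCs (fiSCs) of C57BL/6 mice aged 3 months, sorted as CD31-, CD45-, Sca1- and Vcam1+ cells, which per the study are already in early activation after isolation. There were 2 libraries from immunoprecipitation with anti-CPEB1 (CPEB1 IP), 2 with anti-IgG (IgG) and 2 of input RNA for which no antibody was used. No library carried a genetic change or a drug treatment, and the labels do not say how many mice went into each library. The IgG libraries were deposited separately from those of CPEB1 IP and input. In comparisons with IgG, the antibody and any difference between these library sets cannot be told apart.

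Counts on genes ranged from 1284716 in IgG 1 to 4941653 in CPEB1 IP 2. Deposited FPKM is the fragment count scaled by gene length and by a library total. That total was larger than the counts on genes, and genes took 39.1 to 39.5% of it in IgG against 69.5 to 79.8% in CPEB1 IP and input. FPKM therefore sits lower in IgG for a typical gene, and the tests used TMM normalization, which sets the typical gene to no change. Summed FPKM of 8 SC markers was 1091 to 2771 across libraries (227 to 1015 without Sdc4, the most abundant), that of endothelial, haematopoietic, fibro-adipogenic, mural, myofibre and Schwann cell markers was 9.65 to 217, and no marker was at 0 in both input libraries.

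The 8 genes took 1.05 and 0.949% of all counts on genes in input, 0.560 and 0.538% in CPEB1 IP, and 0.449 and 0.452% in IgG. The groups did not overlap, with input highest and IgG lowest, although 2 libraries against 2 cannot give an exact two-sided permutation p below 0.333. Fos alone held 29.2 to 33.8% of the AP-1 counts of a library, and Junb held 23.6 to 29.3%.

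The position and the 3′ UTR of each gene are given here because the 3′ UTR is where CPEB1 and decay factors bind. Fos lay at chr12:85473890-85477273 on the plus strand of mm10, Fosb at chr7:19302696-19310051 on the minus strand, Fosl1 at chr19:5447547-5455946 on the plus strand, and Fosl2 at chr5:32135801-32157842 on the plus strand. Jun lay at chr4:95049034-95052222 and Junb at chr8:84974484-84978718, both on the minus strand, Jund at chr8:70698949-70700616 on the plus strand, and Atf3 at chr1:191170296-191218039 on the minus strand. Jun and Jund consist of 1 exon each.

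In the longest annotated 3′ UTR of each gene, the CPE letters TTTTAT or TTTTAAT, read on the mRNA strand, occurred 3 times in Fos, 5 times in Fosl2, 2 times in Fosl1 and Jun, and 1 time in Fosb and Junb. Neither Jund nor Atf3 held one, so 6 of the 8 genes had a CPE. Of 10886 tested genes, 65.4% had one in the longest annotated 3′ UTR and 66.9% in any. The AP-1 count was 6 under both rules. The windows below show the CPE nearest to the end of the 3′ UTR in these 6 genes, written 5′ to 3′ as DNA on the mRNA strand, with every CPE in the window in capitals.
Fos, chr12:85477135-85477164, plus strand: agatatttatatTTTTATTTTATttttttc
Junb, chr8:84976936-84976965, minus strand: gtgtgtttgactTTTTATtgaatctattta
Jun, chr4:95049585-95049614, minus strand: agtatataatttTTTTATgttttgtttctg
Fosb, chr7:19303438-19303467, minus strand: cagatttctattTTTTAATattggggagat
Fosl1, chr19:5455890-5455919, plus strand: taaagagactatTTTTATacaaaccttcca
Fosl2, chr5:32157744-32157773, plus strand: ggtttgttctcgTTTTATgtttttgttgtt
In Fos 2 CPEs stood side by side, sharing a base, and 121 and 116 bases remained from them to the end of the 3′ UTR. The CPE shown lay 38 bases from that end in Junb, 39 in Fosl1 and 81 in Fosl2, but 563 in Jun and 747 in Fosb.

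The pentamer ATTTA, the core of AU-rich elements, was present in all 8 genes and in 72.1% of tested genes. It occurred 8 times in Fosl2, 4 times in Fos and Jun, 3 times in Atf3, 2 times in Junb, and 1 time in Fosb, Fosl1 and Jund. Per kilobase, Fos held 4.91 and Junb 4.12, Fosb held 0.434, and the median of tested genes was 1.38. ATTTA can share letters with a CPE, and the windows below show it in Fos, where 2 copies overlap, and in the 2 genes without a CPE, with ATTTA in capitals.
Fos, chr12:85477100-85477129, plus strand: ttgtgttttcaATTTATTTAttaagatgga
Jund, chr8:70700358-70700387, plus strand: ccgattccgccctATTTAtgtttctactcg
Atf3, chr1:191171242-191171271, minus strand: caccaattccaggATTTAggccttatcatc
A match to these letters describes the annotated sequence and does not show that a protein bound it.

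**Figure D1:**
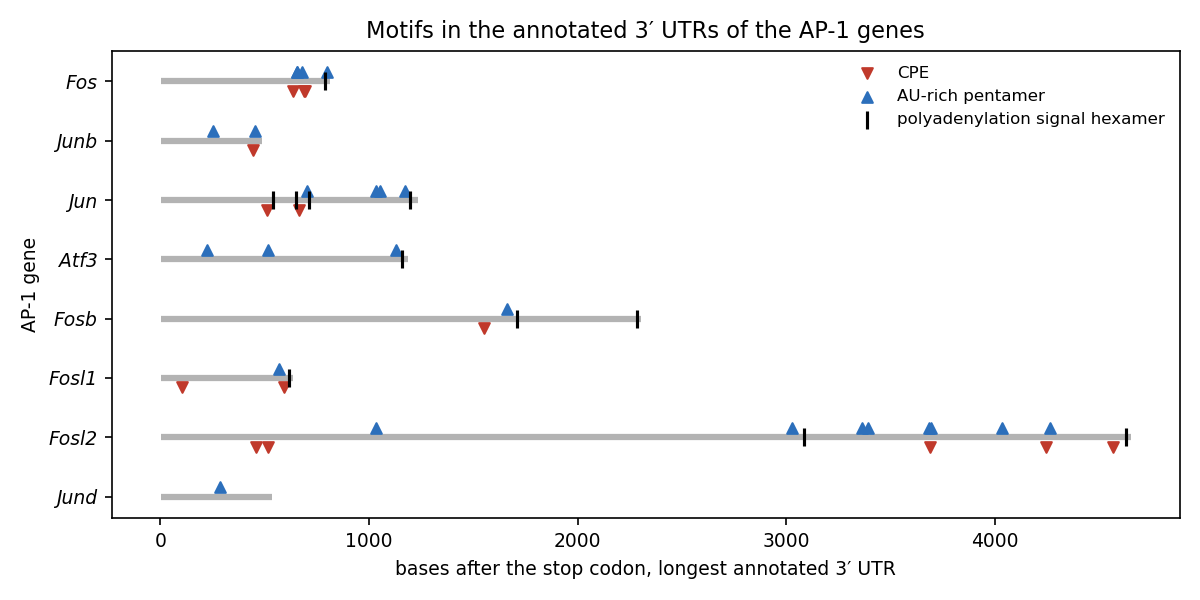
The longest annotated 3′ UTR of each AP-1 gene is drawn to scale as a grey bar, in bases after the stop codon, with CPEs as red triangles below it, ATTTA as blue triangles above it and the polyadenylation signal hexamer AATAAA as black ticks. Fosl2 has the longest of these 3′ UTRs, with 4653 bases and 5 CPEs, and the bars of Jund and Atf3 carry no red triangle.

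The levels in input describe the AP-1 mRNAs of fiSCs before precipitation. Fos, the founding member of the Fos family, stood at 929 and 1042 FPKM in input, which ranked it 11 of 55376 genes. Junb, a Jun protein that often restrains the activity of Jun, followed with 893 and 817 FPKM at rank 15. Jun itself, the main partner of Fos, stood at 305 and 283 FPKM, at rank 87. These 3 did not overlap with each other over the input libraries.

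Atf3, known as a stress-induced bZIP protein, had 208 and 253 FPKM in input. Fosb, a Fos protein with a strong transactivation domain in its full-length form, had 220 and 204 FPKM. The input libraries of Atf3 and Fosb overlapped, so their order was not resolved, and both lay below Jun. The counted exon bases of Fosb, 6243 in 2 blocks, merge transcripts of 1 to 5 exons. They thus take in bases that are intron in some of its transcripts, and the effect on its level was not tested.

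The last 3 genes were lower. Fosl1, which encodes Fra-1, had 41.5 and 34.2 FPKM in input, Fosl2, which encodes Fra-2, had 35.0 and 40.1, and Jund, the Jun gene most often expressed steadily in resting cells, had 22.2 and 39.6. Neighbours among these 3 overlapped, and TPM computed from the counts gave the order of the 8 genes unchanged. The levels of Fosl1 and Jund are uncertain, since 57.2% and 52.6% of their exon bases also lie in exons of genes on the opposite strand. How reads there were counted is not given in the sources used here, and TPM rests on the same counts and exon lengths.

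**Figure D2:**
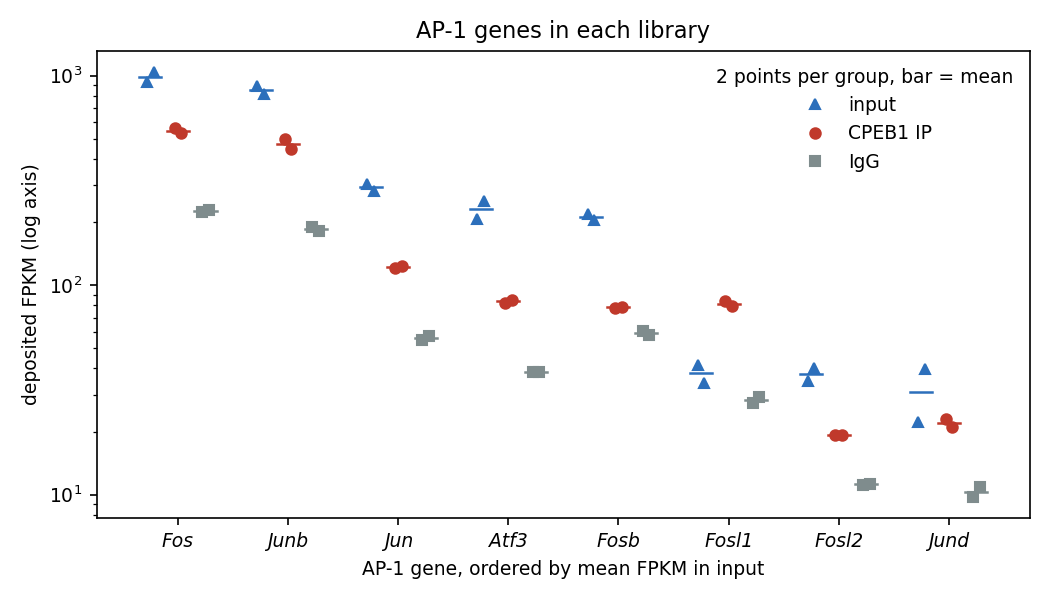
Deposited FPKM (log axis) of each AP-1 gene in the 2 input, 2 CPEB1 IP and 2 IgG libraries, with 1 point for each library and a bar at the group mean. Input is highest for Fos, Junb, Jun, Atf3, Fosb and Fosl2, CPEB1 IP is highest for Fosl1, and IgG is lowest for all 8, where FPKM also carries the lower share of the IgG total that fell on genes.

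The comparison of CPEB1 IP with input asks which mRNAs made up more or less of the precipitate than of the cells. Most AP-1 mRNAs made up less: 6 of 8 were lower (quasi-likelihood test of edgeR, adjusted p under 0.05), where 15.8% of 12171 tested genes were lower, 1 was higher, where 17% were, and Jund was not called. Their median log2 fold change was -0.72, against -0.00 over all genes tested. Among the 3601 tested genes at least as abundant as Jund, a set chosen after the data were seen, 19.0% were lower and the median was 0.13.

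Atf3 had 82.4 and 85.1 FPKM in CPEB1 IP against the 208 and 253 in input. Both CPEB1 IP libraries lay far below both input libraries, and the log2 fold change was -1.26 (SE 0.13, adjusted p = 1.83e-05 by edgeR). Fosb, with 78.0 and 79.0 FPKM in CPEB1 IP, gave a close value of -1.25 (SE 0.13, adjusted p = 2.92e-05 by edgeR). For Jun, 121 and 124 FPKM in CPEB1 IP gave a log2 fold change of -1.08 (SE 0.13, adjusted p = 7.35e-05 by edgeR).

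Fos stood at 562 and 532 FPKM in CPEB1 IP, or 55.5% of its mean in input, with a log2 fold change of -0.66 (SE 0.12, adjusted p = 0.00164 by edgeR). Junb stood at 498 and 449 FPKM, with a log2 fold change of -0.67 (SE 0.14, adjusted p = 0.00297 by edgeR). Fosl2 was lower as well, with 19.3 and 19.4 FPKM in CPEB1 IP and a log2 fold change of -0.77 (SE 0.12, adjusted p = 0.000522 by edgeR). The call of Junb was lost without CPEB1 IP 2, where its log2 fold change was -0.60.

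Fosl1 was the one AP-1 gene that was higher in CPEB1 IP than in input. It had 83.7 and 79.2 FPKM in CPEB1 IP against 41.5 and 34.2 in input, with no overlap, and a log2 fold change of 1.29 (SE 0.16, adjusted p = 7.55e-05 by edgeR). Its reads cannot be given to it with certainty: 57.2% of its exon bases, including the shown CPE, also lie in exons of Ccdc85b on the opposite strand, and the strand setting of the counting is not given in the sources used here. Ccdc85b itself had a log2 fold change of 1.14 (SE 0.15, adjusted p = 0.000107 by edgeR) in this comparison, and its part in the Fosl1 value was not tested.

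Jund had 22.9 and 21.0 FPKM in CPEB1 IP, between its input values of 22.2 and 39.6 or just below them, and its log2 fold change was -0.29 (SE 0.21, adjusted p = 0.312 by edgeR). The 2 input libraries decided this value, which was -0.64 without input 1 (adjusted p = 0.00181 by edgeR) and 0.09 without input 2. Its counts are uncertain like those of Fosl1: the antisense gene Gm11175 shares 52.6% of the exon bases of Jund and had 0 counts in all 6 libraries, and how reads on both genes were treated is not given in the sources used here.

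IgG stands for the RNA that came down without an antibody to CPEB1, and most AP-1 mRNAs were lower there too. Against input, 7 of 8 were lower in IgG, where 19.4% of 12980 tested genes were lower, and Fosl1 was higher, where 21.4% were. The AP-1 median was -1.11, against 0.03 over all genes tested. Among the 3659 tested genes at least as abundant as Jund, 35.9% were lower and the median was -0.21.

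Atf3 had 38.6 and 38.3 FPKM in IgG and a log2 fold change of -1.70 against input (SE 0.15, adjusted p = 4.91e-12 by edgeR). For Jun, 54.6 and 57.3 FPKM in IgG gave -1.52 (SE 0.14), and for Junb, 189 and 181 FPKM gave -1.34 (SE 0.13). Fos, at 225 and 228 FPKM, gave -1.24 (SE 0.12), and its mean in IgG was 22.9% of that in input. In these 4 genes IgG lay below input by more than CPEB1 IP did, though the CPEB1 IP and IgG comparisons share the input libraries.

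Fosb, with 60.3 and 58.1 FPKM in IgG, had a log2 fold change of -0.97 (SE 0.13) against input, and Fosl2, with 11.2 FPKM in each library, had -0.86 (SE 0.14). Fosl2 thus gave -0.77 in CPEB1 IP and -0.86 in IgG, whereas Fosb gave -1.25 and -0.97. Jund, at 9.78 and 10.9 FPKM in IgG, had -0.68 (SE 0.24, adjusted p = 0.0225 by edgeR), a call that was lost with DESeq2 and without IgG 1, IgG 2 or input 2.

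Fosl1 had 27.3 and 29.3 FPKM in IgG and a log2 fold change of 0.45 (SE 0.18, adjusted p = 0.0451 by edgeR) against input with TMM, but -0.42 with the library totals behind the FPKM. That call was also lost with DESeq2, with no filter on low counts, and without IgG 1, IgG 2 or input 2. Ccdc85b, which shares its exons, had 0.80 (SE 0.17, adjusted p = 0.000164 by edgeR).

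Markers of the cells moved with the comparisons to input. Over all genes tested against input, 17% were higher and 15.8% lower in CPEB1 IP, and 21.4% were higher and 19.4% lower in IgG. Of 8 SC markers, 4 were lower in CPEB1 IP and 6 in IgG, none was higher, and their median log2 fold changes were -0.61 and -1.07. Of 6 endothelial markers, 5 were higher in CPEB1 IP and 4 in IgG, and of 3 Schwann cell markers 3 and 2 were higher. All 3 fibro-adipogenic markers tested were higher in CPEB1 IP and all 4 in IgG, while 2 of 3 mural markers were lower in each. Of myofibre markers 1 of 5 was higher in each, and of haematopoietic markers 1 of 3 in CPEB1 IP and 3 of 4 in IgG were higher. The precipitates were drawn from cell lysates, so these values do not count cells. Fewer cells of a type, less RNA per cell and lower recovery in a precipitate cannot be told apart here. The part of cell makeup in the AP-1 values was not tested. Against IgG, 14.7% of all genes tested were higher in CPEB1 IP and 18.7% lower. SC markers also leaned towards CPEB1 IP, with 4 of 8 higher, none lower and a median of 0.28. Among the tested genes at least as abundant as Jund, 35.6% were higher and the median was 0.22. No endothelial or Schwann cell marker was called. Of the other markers, 1 of 3 mural (Acta2, 0.76), 1 of 4 fibro-adipogenic (Dcn, 0.36) and 1 of 4 myofibre markers (Acta1, 0.46) were higher in CPEB1 IP, and of 4 haematopoietic markers 1 was higher and 3 were lower.

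CPEB1 IP against IgG is the comparison meant to find RNA that came down with CPEB1. Of the AP-1 genes, 5 of 8 were higher in CPEB1 IP, namely Fosl1, Junb, Fos, Jun and Atf3, where 14.7% of 12124 tested genes were higher. With TMM 1 was lower, Fosb, where 18.7% were. With the library totals behind the FPKM all 8 were higher, where 7149 of the 12124 tested genes were. Low genes tended to be lower in CPEB1 IP in this comparison: among the 4051 tested genes at least as abundant as Jund, 35.6% were higher and the median was 0.22, while the AP-1 median was 0.32 and that of all genes tested was -0.01. The other members were more abundant, at 7.68 to 10.7 log2 CPM against 5.69 for Jund, and no set matched to their level was drawn.

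Fosl1 led with TMM-normalized CPM of 258 and 235 in CPEB1 IP and 142 and 157 in IgG. The groups did not overlap, and the log2 fold change was 0.72 (SE 0.11, adjusted p = 8.80e-05 by edgeR). Ccdc85b, which shares 57.2% of its exon bases, had 0.22 (SE 0.10, adjusted p = 0.110 by edgeR).

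Junb had 1740 and 1506 CPM in CPEB1 IP against 1114 and 1097 in IgG, a log2 fold change of 0.55 (SE 0.10, adjusted p = 0.000210 by edgeR). Fos had 2007 and 1823 CPM in CPEB1 IP against 1355 and 1410 in IgG, and its log2 fold change was 0.47 (SE 0.09, adjusted p = 0.000696 by edgeR). Both calls held under every alternative tried.

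Jun and Atf3 differed less. Jun had 584 and 574 CPM in CPEB1 IP against 447 and 481 in IgG, with a log2 fold change of 0.32 (SE 0.09, adjusted p = 0.0108 by edgeR). Atf3 had 269 and 267 CPM against 213 and 217, also with a log2 fold change of 0.32 (SE 0.10, adjusted p = 0.0196 by edgeR). The call of Atf3 was lost without CPEB1 IP 1 or CPEB1 IP 2, where its log2 fold change was 0.35 in each case.

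Fosb went the other way with TMM, at 740 and 719 CPM in CPEB1 IP against 965 and 956 in IgG. Its log2 fold change was -0.40 (SE 0.09, adjusted p = 0.00159 by edgeR) and depended on the method. It was -0.11 with DESeq2 (adjusted p = 0.359), -0.00 with no filter on low counts, and 0.41 with the library totals behind the FPKM. Counts of Fosb can include reads from bases that are intron in some of its transcripts, and their part in this value was not tested. Fosl2 had 283 and 273 CPM in CPEB1 IP and 277 and 286 in IgG, which overlapped, and a log2 fold change of -0.02 (SE 0.10, adjusted p = 0.900 by edgeR) that became 0.79 with the library totals and 0.38 with no filter. Jund had 58.0 and 51.1 CPM against 41.8 and 47.7, with a log2 fold change of 0.27 (SE 0.19, adjusted p = 0.292 by edgeR).

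**Figure D3:**
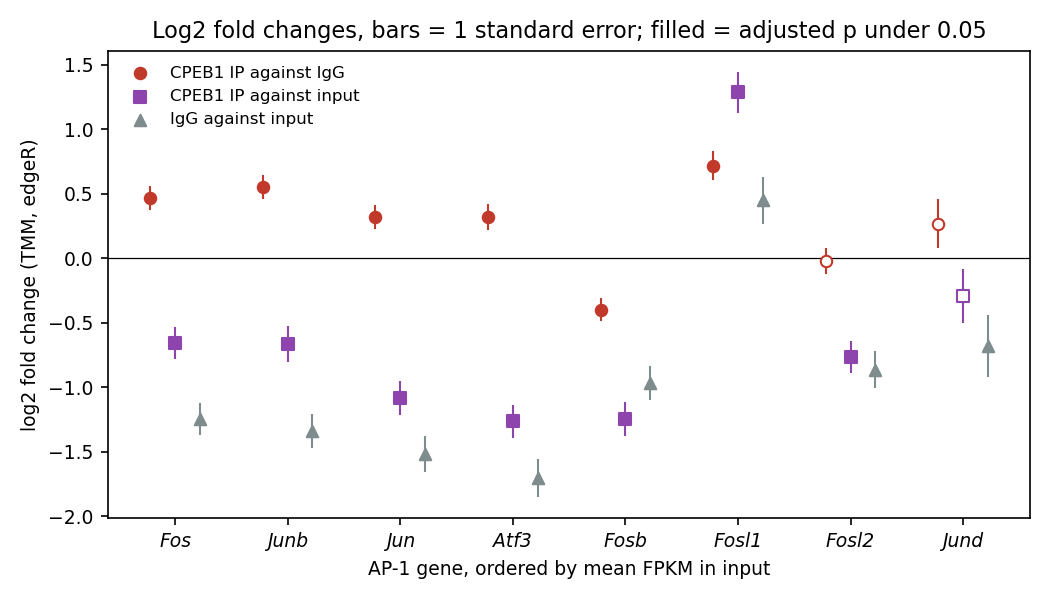
Log2 fold change of each AP-1 gene (TMM, edgeR) with red circles where CPEB1 IP is set against IgG, purple squares where it is set against input and grey triangles where IgG is set against input, with bars of 1 standard error and filled symbols for an adjusted p under 0.05. Fosl1 alone is above 0 in all 3 comparisons, and Fosb and Fosl2 are the genes below 0 against IgG with TMM, at -0.40 and -0.02. With the library totals behind the FPKM, Fosb and Fosl2 lie at 0.41 and 0.79 against IgG and Fosl1 at -0.42 in IgG against input.

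The scaling shifted all genes together. With the library totals behind the FPKM in place of TMM, the median log2 fold change over all genes tested was 0.80 between CPEB1 IP and IgG, -0.19 between CPEB1 IP and input, and -0.85 between IgG and input. The calls of CPEB1 IP against IgG went from 1779 higher and 2265 lower to 7149 higher and 937 lower. Relative to that median, Fosl1 stood at 0.73 against IgG, Junb at 0.56, Fos at 0.48, Fosl2 at -0.01 and Fosb at -0.39. The order among the AP-1 genes was thus carried by either scaling, while the sign of Fosb and Fosl2 was not.

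**Figure D4:**
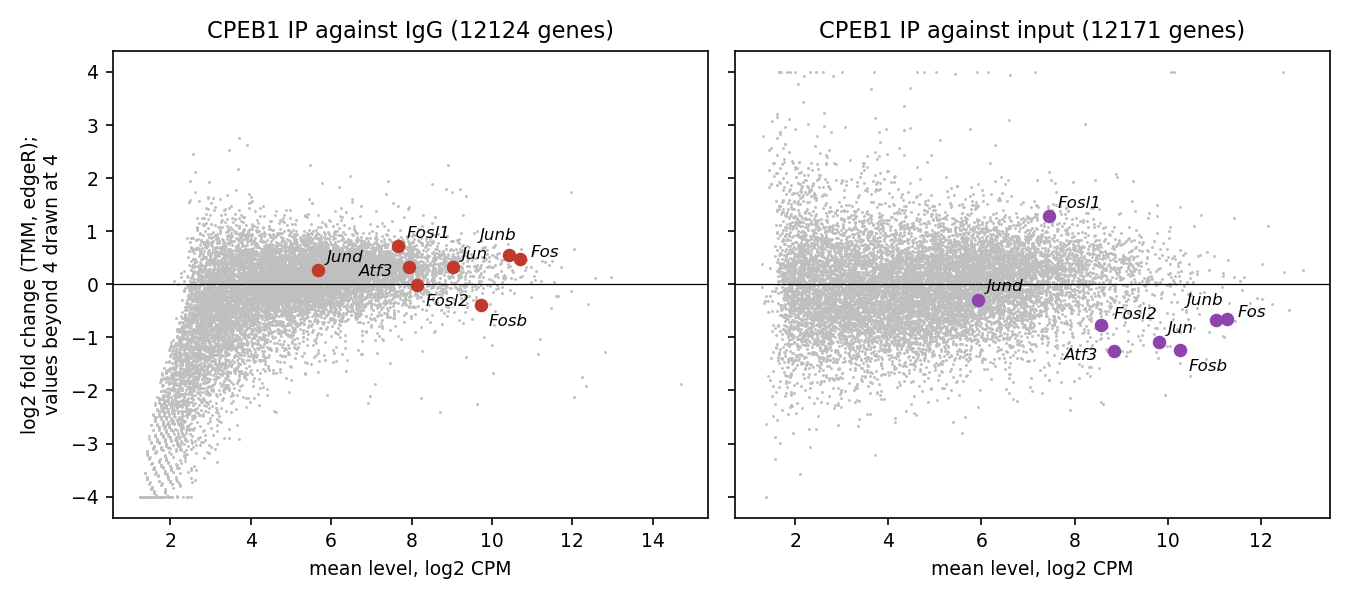
Log2 fold change (TMM, edgeR) against mean level in log2 CPM for all genes tested, with AP-1 genes marked and values beyond 4 in size, up or down, drawn at the edge, for CPEB1 IP against IgG (left) and against input (right). Against IgG, the grey cloud bends down at low levels, and 5 AP-1 genes were called higher and Fosb lower (0.41 with the library totals behind the FPKM, which also bring Fosl2 to 0.79); against input all but Fosl1 are below 0.

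Counts within a library need no scaling between libraries. Per 100 counts of Fos, Fosb had 62.8 and 52.0 counts in input, 36.9 and 39.5 in CPEB1 IP, and 71.2 and 67.8 in IgG, so it was scarcest beside Fos in CPEB1 IP. Fosl1 had 3.86 and 2.84 in input, 12.9 in both CPEB1 IP libraries, and 10.5 and 11.1 in IgG. Fosl1 was thus more abundant beside Fos in both precipitates than in input, and the gap between CPEB1 IP and IgG was small next to that.

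Junb ran close to Fos throughout, with 94.1 and 76.7 counts per 100 of Fos in input, 86.7 and 82.6 in CPEB1 IP, and 82.2 and 77.8 in IgG, and the input values spanned those of both precipitates. Jun had 44.5 and 36.8 in input, 29.1 and 31.5 in CPEB1 IP, and 33.0 and 34.1 in IgG. Atf3 had 20.5 and 22.2, then 13.4 and 14.7, and then 15.7 and 15.4 in that order of groups. Relative to Fos, Jun and Atf3 were highest in input and lowest in CPEB1 IP.

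**Figure D5:**
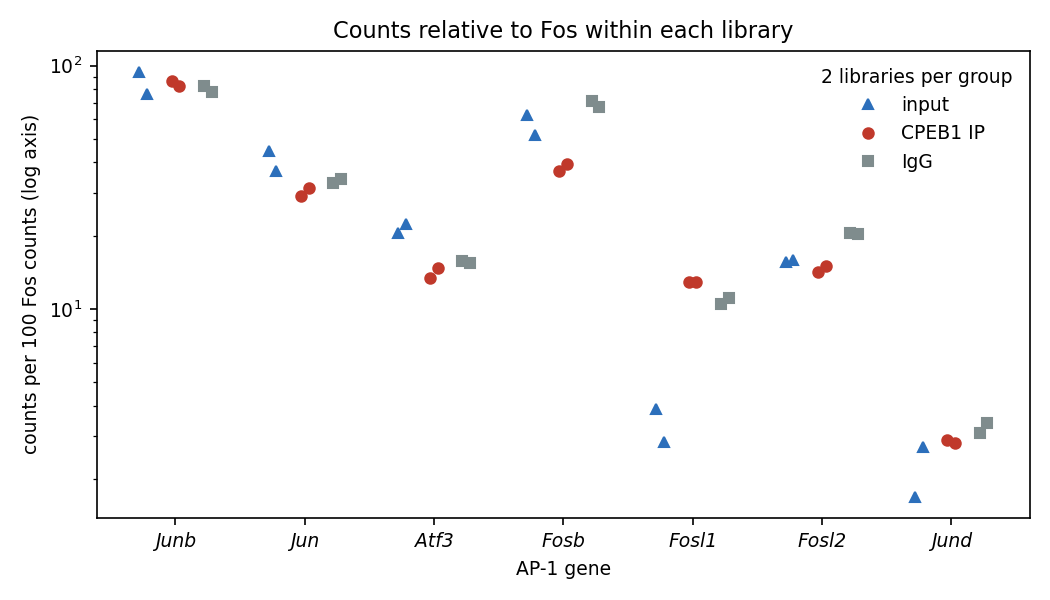
Counts of 7 AP-1 genes per 100 Fos counts of the library (log axis), with 1 point for each of the 2 input, 2 CPEB1 IP and 2 IgG libraries. Fosl1 sits at 3.86 and 2.84 in input and between 10.5 and 12.9 in the precipitates, and Fosb is lowest in CPEB1 IP.

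The study's rule for CPEB1-associated mRNAs asks that FPKM in CPEB1 IP be more than 2 times that in IgG in both experiments, together with an adjusted p under 0.05 in DESeq2. The ratio was taken here after adding 1 to each FPKM. In experiments 1 and 2, the ratios were 3.00 and 2.65 for Fosl1, 2.63 and 2.47 for Junb, 2.49 and 2.33 for Fos, 2.19 and 2.14 for Jun, and 2.11 and 2.19 for Atf3. Jund passed in experiment 1 alone, with 2.21 and 1.85, Fosl2 had 1.67 and 1.66, and Fosb had 1.29 and 1.35. So 5 of 8 passed in both, where 14.4% of tested genes did. The 5 were also called higher by edgeR, where 12.1% passed both criteria. Adding 1 draws the ratio of genes with low FPKM towards 1, and no share among abundant genes was drawn for this rule. By edgeR alone, 35.6% of the 4051 tested genes at least as abundant as Jund were higher. DESeq2 called the 5 higher as well, with log2 fold changes of 0.75 for Fos and 0.60 for Jun and Atf3. With edgeR these were 0.47 for Fos and 0.32 for Jun and Atf3. DESeq2 gave a higher value than edgeR for each of the 8 genes, Fosb included (-0.11 against -0.40), but the gene sets differed. DESeq2 was run on 42045 genes with no filter on low counts, and edgeR on 12124 genes past its filter. With no filter, edgeR gave higher values than DESeq2 for all 8, such as 0.86 for Fos and -0.00 for Fosb.

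These ratios carry the lower gene share of the IgG totals, and the median gene tested had 1.45 and 1.52. With FPKM recomputed from TMM library sizes, none of the 8 passed 2 in both experiments. The ratios of Fosb were then 0.77 and 0.75, and that of Fosl2 was 0.96 in experiment 2.

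Having a CPE did not sort the AP-1 genes by their call. Of the 6 genes with a CPE 4 were higher in CPEB1 IP than in IgG, as was 1 of the 2 without, Atf3, while Fosl2 with its 5 CPEs was not called. Over all genes, the median log2 fold change against IgG was -0.02 for 7121 genes with a CPE in the longest 3′ UTR and 0.13 for 3765 without. Of the single-exon protein-coding genes, the class to which Jun and Jund belong, 220 were tested against IgG, with 32 higher, 23 lower and a median of 0.08. Over all genes tested, 14.7% were higher and 18.7% lower.

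The course of Fos over the 6 libraries was followed most closely by Itm2a, Pde4b and Maff, with root mean square differences of centred log2 CPM of 0.0423, 0.0439 and 0.0455 among 13685 genes. Among the AP-1 genes, Junb was nearest to Fos, at 0.0987 and rank 29, and Fosl1 was farthest, at 0.879. The genes nearest to Jun were R3hcc1, Hk1 and Boc, at 0.0726 to 0.0762, and those nearest to Atf3 were Ncoa7, Cavin2 and Notch3, at 0.0392 to 0.0625. Jun and Atf3 ranked 53 in likeness to each other, with a difference of 0.144.

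The counts in the lists that follow stand beside 14.7% higher and 18.7% lower over all genes tested for CPEB1 IP against IgG, 17% and 15.8% when it is set against input, and 21.4% and 19.4% when IgG is. Among 14 bZIP relatives and partners, 10 were tested, and 3 were higher in CPEB1 IP than in IgG and none lower, with a median of -0.04. Against input, 2 were higher and 2 lower in CPEB1 IP, and 3 were lower in IgG. The small Maf proteins Mafk and Maff, which bind DNA as bZIP dimers, were lower than input by edgeR, at -0.93 (adjusted p = 0.000139) and -0.68 (adjusted p = 0.00121), and higher than IgG, at 0.35 and 0.41. Maff had 109 and 128 FPKM in input, 63.8 and 65.6 in CPEB1 IP, and 27.5 and 28.0 in IgG. Atf4, the factor of the integrated stress response, had -0.07 against IgG and -0.04 against input, and neither passed the test.

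Upstream of Fos and Jun stand MAP kinases and factors such as Srf and Creb1. Of 17 tested, 3 were higher and 2 lower in CPEB1 IP than in IgG, close to the 14.7% and 18.7% of all genes or below them, with a median of 0.02, and the same counts held against input for CPEB1 IP, with a median of -0.01. In IgG against input they were also 3 and 2. Map2k1, a kinase that activates MAP kinases, was higher than IgG (0.44) and than input (0.49), whereas Map2k2 had 0.08 and 0.09, which did not pass.

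MAP kinase phosphatases end the signal that induces AP-1. Against IgG 2 of 9 tested were higher in CPEB1 IP and 1 lower, with a median of 0.27, and against input 2 of 10 were higher and 2 lower, with a median of 0.50. In IgG 2 of 9 were lower than input. Dusp1, itself an immediate early gene, had 219 and 225 FPKM in input, 304 and 305 in CPEB1 IP, and 123 and 121 in IgG, with log2 fold changes of 0.51 over IgG and 0.64 over input (adjusted p = 0.00170 by edgeR). Dusp1 and Dusp10 (0.67) were thus above input where Fos and Jun were below it, and Dusp8 was far below, at -1.81.

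Proteins that bind AU-rich elements act on Fos-type mRNAs. Of 8 tested, 3 were higher in CPEB1 IP than in IgG and none lower, with a median of 0.06, and 4 were higher and 2 lower than input, with a median of 0.29. In IgG 2 were higher and 2 lower than input. Zfp36, which directs decay of such mRNAs, was higher than IgG (0.56) and lower than input (-1.04), with 178 and 227 FPKM in input, 87.0 and 84.2 in CPEB1 IP, and 34.2 and 32.4 in IgG. Zfp36l1 was higher than IgG (0.52) with 0.04 against input, and Zfp36l2 was higher than input (0.69) with 0.04 against IgG.

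Of textbook target genes of AP-1, 4 of 12 tested were higher in CPEB1 IP than in IgG, where 14.7% of all genes were, and 1 was lower, with a median of 0.18. Against input 7 of 13 were higher in CPEB1 IP, where 17% were, and 2 lower, with a median of 0.76, and in IgG 4 of 12 were higher, where 21.4% were, and 2 lower. Plaur, the urokinase receptor, was higher than IgG (0.77), with 0.30 against input. The growth factor gene Hbegf was higher than both, at 0.44 and 0.56, and Cd44, an adhesion receptor, was higher than input (1.25) with 0.05 against IgG.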

How the data were processed

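RIP-seq libraries of fiSCs (2 CPEB1 IP, 2 IgG, 2 input) were grouped by their labels. The authors mapped reads to mm10 with HISAT and deposited raw counts per gene from featureCounts, without normalization. The authors also deposited FPKM, computed from the count, the exon length and a library total larger than the counts on genes. The study made the cDNA libraries with SMART-Seq2. Neither the strand setting of the counting nor the handling of reads shared between genes is given in the sources used here. StringTie is named in the submitters' processing notes without a role.

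Counts were compared 2 groups at a time with edgeR 4.0.16 in R 4.3.3 (filterByExpr, TMM, quasi-likelihood test, Benjamini-Hochberg over all genes tested, threshold 0.05). The SE is the size of the log2 fold change divided by the square root of F. On simulated counts, 54.5% of 200 genes given a log2 change of 1 were recovered among 12124 genes for CPEB1 IP against IgG, with 10 unchanged genes called, 55% among 12171 for CPEB1 IP against input, with 0, and 36.5% among 12980 for IgG against input, with 2. All 8 AP-1 values against IgG were below that size, and recovery of smaller changes was not simulated. FPKM ratios had a pseudocount of 1. Gene positions, exons and 3′ UTRs came from GENCODE M21, and all 8 AP-1 genes had identical positions there. Python 3.11.15, pandas 2.3.3 and matplotlib 3.10.9 were used for the rest.

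Members and lists were chosen with earlier results of these data known. Named genes were the 8 AP-1 genes, the 3 members of each other list with the highest mean count in input, and for Fos, Jun and Atf3 the 3 genes of closest course over the libraries. Further genes were named where they share exons with a member. One gene that this rule names is not reported here. The methods pair the CPEB1 IP and IgG libraries of each experiment, but the deviations of same-numbered libraries correlated at -0.0092 between CPEB1 IP and IgG, -0.0137 between CPEB1 IP and input, and 0.0359 between IgG and input, over 13685 genes. Replicates differed by more than sampling noise in each group. The design text calls them biological replicates. Alternatives were DESeq2 1.42.0, RLE size factors, the library totals behind the FPKM, no low-count filter, the replicate block, 1 fit of all 6 libraries, each library left out, pseudocounts of 0.1 and 5, crossed pairs, TMM library sizes for FPKM, TPM and other CPE rules. Medians and shares over genes at least as abundant as Jund were added after the data were seen, and the other members were more abundant than Jund.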

Additional observations from a re-analysis of the deposited data

How the results depend on the processing

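Of the log2 fold changes of the 8 AP-1 genes under the alternatives, 213 kept direction and side of the threshold, 14 lost the call, 3 gained one and 10 reversed. The reversals were Fosb (0.41) and Fosl2 (0.79) against IgG and Fosl1 (-0.42) in IgG against input, all with the library totals behind the FPKM, Fosl2 against IgG with no filter (0.38), DESeq2 (0.26), all 6 libraries in 1 fit (0.046), and without CPEB1 IP 2, IgG 1 or IgG 2 (-0.0068 to 0.051 over the libraries left out), and Jund in CPEB1 IP against input without input 2 (-0.64 to 0.094 over the libraries left out). With TMM library sizes the FPKM ratio reversed for Fosb (0.77 and 0.75) and Fosl2 (0.96, experiment 2), and 0 AP-1 genes passed 2 in both experiments. In CPEB1 IP against IgG, the library totals gave 7149 genes higher and 937 lower, with 8 and 0 AP-1 genes, no filter gave 3513 higher and 0 AP-1 genes lower, and DESeq2 gave 984 lower and 0 AP-1 genes lower. In CPEB1 IP against input, DESeq2 gave 1230 higher and 1190 lower, and the library totals 1235 higher. In IgG against input, DESeq2 gave 1188 higher and 1602 lower, the library totals 1108 and 7180, and both, like no filter, 0 AP-1 genes higher. With 1 library left out, genes higher and lower numbered 1054 to 1783 and 677 to 1750 in CPEB1 IP against IgG, 957 to 2646 and 1064 to 2347 in CPEB1 IP against input, and 1354 to 2170 and 1709 to 2400 in IgG against input, where 0 to 1 AP-1 genes were higher. CPEB1 IP 1 and 2 moved the first 2 comparisons most, and fits without a library have fewer samples. Otherwise the cause was not tested. The same-numbered libraries share only a number in the counts, and the replicate block gave 1739 genes higher and 2231 lower in CPEB1 IP against IgG and changed no AP-1 call in any comparison. Jund, the AP-1 gene with the fewest counts, had the largest SE in each comparison.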
